A study of Homo sapiens with 12 samples.

Results

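The cytosolic ribosome is built from ribosomal RNA and a set of proteins, each encoded by its own gene, with the RPL and RPLP genes supplying the large subunit and the RPS genes and RPSA the small subunit. These mRNAs are among the most abundant of a dividing cell. Most of them begin with a terminal oligopyrimidine (TOP) tract, a C at the first transcribed base followed by an unbroken run of C and T, through which mTORC1 and the RNA-binding protein LARP1 set their translation and stability. Unassembled RPL5 and RPL11 can bind MDM2 together with the 5S ribosomal RNA, which links ribosome assembly to p53.

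The genes described here are the 77 whose symbol matched the standard names of cytosolic ribosomal proteins, of 26475 gene symbols in the table of counts. Of these 77, 46 encode proteins of the large subunit and 31 encode proteins of the small subunit. All 77 passed the filter on low counts in each of the 4 comparisons. FAU, which encodes a ribosomal protein fused to a ubiquitin-like protein, did not match the names and is given beside them.

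RNA sequencing was performed on 12 libraries of 2 human cell lines. PA-1 is derived from an ovarian teratocarcinoma and was grown in DMEM, and SK-OV-3 is derived from an ovarian adenocarcinoma and was grown in RPMI, both with 10% fetal bovine serum. Each line was treated with vehicle (DMSO) or with 5 µM BAY-850, a chemical inhibitor directed at ATAD2, a chromatin ATPase with a bromodomain, for 48 h, with 3 biological replicates in each of the 4 groups. Each line is 1 line in its own medium, so that line, medium and tumor of origin cannot be told apart, and BAY-850 was measured at 1 dose and 1 time.

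Library totals ranged from 34544505 to 51840233 expected counts. Rows of ribosomal RNA took 7.94% to 16.9% of them. The markers of the teratocarcinoma line (LIN28A, POU5F1, SOX2 and others) were lower in SK-OV-3 for 6 of 6, and those of the adenocarcinoma line (ERBB2, KRT7, EPCAM and others) were higher in SK-OV-3 for 6 of 7, with KRT18 lower.

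Of the 77 genes, 62 had an entry in the RefSeq table of promoters (GRCh38.p14), and 42 of these 62 (67.7%) had at the annotated start a C followed by at least 4 bases that are C or T. Over all 27305 promoters of the table the share was 4.04%. The share was 65.8% in the large subunit and 70.8% in the small subunit. The windows of 30 bases below, centered on the annotated start, belong to the 5 genes with an entry with the largest differences between the lines among those lower in SK-OV-3, to the 5 genes called with BAY-850 in either line and to RPS26, which was higher in SK-OV-3. RPL5, which differed most between the lines, had no entry. Capitals mark the unbroken run of C and T that begins at the annotated start, on the gene's own strand.
RPL26 (chr17:8383179-8383208, minus strand): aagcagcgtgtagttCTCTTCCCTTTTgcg
RPSA (chr3:39406705-39406734, plus strand): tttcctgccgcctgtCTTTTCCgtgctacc
RPL14 (chr3:40457324-40457353, plus strand): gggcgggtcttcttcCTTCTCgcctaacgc
RPS6 (chr9:19380222-19380251, minus strand): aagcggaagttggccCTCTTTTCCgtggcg
RPS24 (chr10:78033848-78033877, plus strand): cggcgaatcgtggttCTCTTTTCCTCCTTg
RPL21 (chr13:27251543-27251572, plus strand): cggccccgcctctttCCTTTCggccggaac
RPS3A (chr4:151099613-151099642, plus strand): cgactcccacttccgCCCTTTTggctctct
RPL7A (chr9:133348203-133348232, plus strand): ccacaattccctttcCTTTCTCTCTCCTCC
RPL15 (chr3:23916530-23916559, plus strand): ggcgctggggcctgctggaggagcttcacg
RPS26 (chr12:56041903-56041932, plus strand): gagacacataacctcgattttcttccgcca
RPS27A (chr2:55231888-55231917, plus strand): taaggagtgacacacaagacccagactctt

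The runs of the first 8 genes were between 6 and 15 bases long within the window. RPL15, RPS26 and RPS27A had no such run at the annotated start, which says only that these letters are absent at that position of this table. A run of the same kind starting anywhere in the window was found in 56 of the 62 genes (90.3%) and in 38.8% of all promoters.

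The share of a library's counts that fell on these genes was 2.14-fold higher in PA-1 than in SK-OV-3. The 77 genes together took 10.9%, 10.0% and 9.91% of the counts outside ribosomal RNA in the 3 PA-1 libraries with DMSO, and 5.32%, 4.58% and 4.51% in the 3 SK-OV-3 libraries with DMSO. The means were 10.3% ± 0.518 and 4.80% ± 0.452 (SD, n = 3 libraries each), and the groups did not overlap. A two-sided exact permutation test gave p = 0.1, the smallest value that 3 libraries against 3 allow. The ratio was 2.09 for the large subunit (6.14% against 2.94%) and 2.21 for the small subunit (4.12% against 1.86%). As shares of a library, these values do not tell less of these mRNAs per cell from more of other mRNAs.

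With BAY-850 the share was 9.53% ± 0.640 in PA-1 and 4.60% ± 0.132 in SK-OV-3 (SD, n = 3 libraries each). In PA-1 the treated libraries held 9.18%, 9.14% and 10.3%, and the third lay above 2 of the DMSO libraries. In SK-OV-3 they held 4.49%, 4.57% and 4.75%, within the range of the DMSO libraries except for the first. Neither difference passed, with exact permutation p = 0.3 in PA-1 and p = 0.6 in SK-OV-3 (two-sided, smallest possible 0.1).

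In each of the 4 groups, the library with the highest share of ribosomal RNA was also the one with the highest share of ribosomal protein mRNA. These were replicate 1 of both DMSO groups and replicate 3 of both BAY-850 groups, and their shares of ribosomal RNA ran from 12.2% in SK-OV-3 with BAY-850 to 16.9% in PA-1 with BAY-850. Each of the 77 genes had its highest level of the group in that library in PA-1 with DMSO and in SK-OV-3 with DMSO, and 76 of 77 did in PA-1 with BAY-850, against 42 of 77 in SK-OV-3 with BAY-850. Values without each of these libraries are given beside the comparisons with BAY-850 and the difference in response, and not for the shares.

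**Figure D1:**
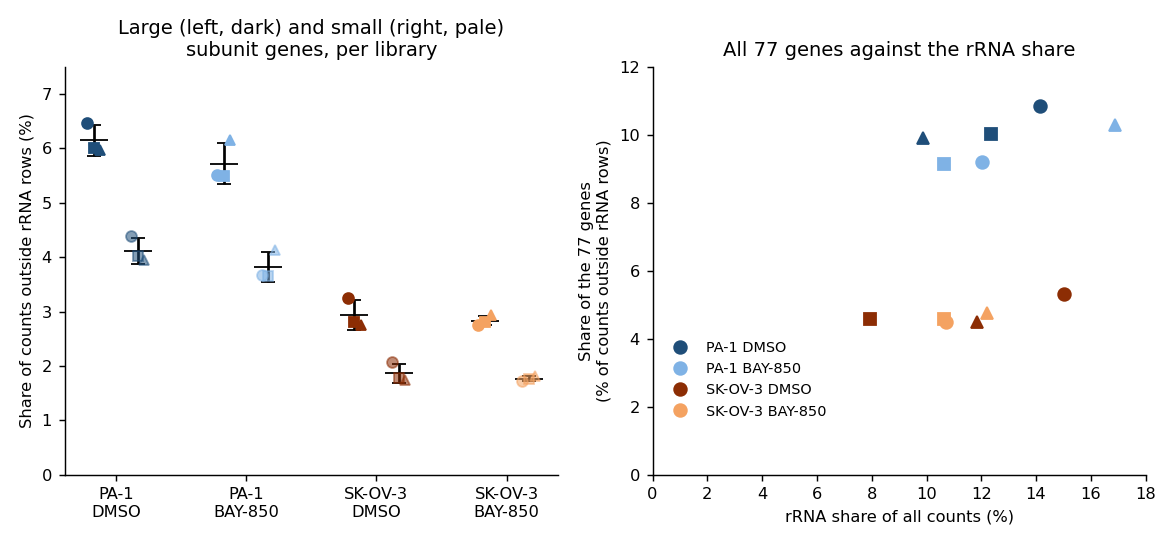
Left, percent of counts outside ribosomal RNA that fell on large subunit genes (left of each group) and small subunit genes (right, paler), with 1 point per library and the mean and SD of 3. Right, the share of all 77 genes against the percent of all counts on ribosomal RNA rows (circle, square and triangle are replicates 1, 2 and 3), where PA-1 libraries lie between 9.14% and 10.9% and SK-OV-3 libraries between 4.49% and 5.32%.

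Gene by gene, in cells with DMSO, 75 of the 77 genes were lower in SK-OV-3 than in PA-1 at an adjusted p under 0.05 (edgeR's quasi-likelihood test, Benjamini-Hochberg over 16070 genes). They were 45 of 46 in the large subunit and 30 of 31 in the small subunit, where 40.2% of all genes tested were lower. RPS26 was the 1 gene that was higher, against 40.1% of all genes tested, and RPL36 did not pass. The median log2 fold change was -0.99 in the large and -1.16 in the small subunit, against 0.0019 over all genes tested, with standard errors between 0.0516 and 0.158 per gene. The difference was at least 2-fold for 45 genes and at least 4-fold for 3, RPL5, RPL26 and RPSA. In 73 of the 77 genes every SK-OV-3 library lay below every PA-1 library, as for 41.2% of all genes tested, in 1 every SK-OV-3 library lay above, as for 41.1%, and 3 overlapped.

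RPL5, which carries the 5S ribosomal RNA into the large subunit, differed most (ENSG00000122406, chr1:92831983-92841924, plus strand, GRCh38). Its levels were 1990.3, 1859.9 and 1789 CPM (a gene's share of the library's counts after scaling by TMM factors) in PA-1 with DMSO and 438, 396 and 398 CPM in SK-OV-3 with DMSO. Both groups were tight and lay far apart. The level was 4.59-fold lower in SK-OV-3 (log2 fold change -2.20, SE 0.0611, adjusted p = 3.76e-12). RPL11, its partner in binding MDM2, had levels of 1152, 1052 and 1008 CPM against 699, 580.1 and 568 CPM, a 1.74-fold difference (log2 fold change -0.80, SE 0.0791, adjusted p = 8.98e-07). Within the pair that binds the 5S ribosomal RNA, RPL5 thus stood at one end of the 77 genes and RPL11 was nearer zero than the median of its subunit.

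RPL26 (chr17:8377516-8383250, minus strand) lies near the exit of the peptide tunnel and is known to bind p53 mRNA. Levels were 1293, 1166 and 1155 CPM in PA-1 against 307, 267 and 259 CPM in SK-OV-3, 4.35-fold lower (log2 fold change -2.12, SE 0.0730, adjusted p = 2.81e-11). RPSA (chr3:39406689-39412542, plus strand), a small subunit protein that was first described as the precursor of a laminin receptor, had 2229, 2045 and 2000.3 CPM against 531, 460.0 and 459 CPM. It was 4.34-fold lower (log2 fold change -2.12, SE 0.0688, adjusted p = 1.62e-11). For both genes the highest SK-OV-3 library stayed below the lowest PA-1 library by a wide margin. RPSA and 14 other genes had counts that were not whole in most libraries, a sign that reads were divided between them and near-identical copies, and the named pseudogenes of RPSA held at most 3.32% of its counts each.

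RPS26 ran the other way. It encodes a protein at the mRNA exit channel of the small subunit and lies at chr12:56041351-56044697 (plus strand). Its levels were 111, 97.9 and 98.7 CPM in PA-1 and 231, 200.5 and 197 CPM in SK-OV-3, with every SK-OV-3 library above every PA-1 library. It was 2.04-fold higher in SK-OV-3 (log2 fold change 1.03, SE 0.0744, adjusted p = 4.15e-08). RPS26 was also the lowest of the 77 genes in PA-1 per length of transcript. Its counts were not whole in any library, so reads were divided with related rows, and the pseudogene RPS26P11 held at most 0.648% of its counts.

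The smallest differences were found for RPS15, RPL36 and RPL38, the 3 genes whose groups overlapped. RPS15, which lies near the decoding site, had 437, 373 and 392 CPM in PA-1 and 385, 310.3 and 318 CPM in SK-OV-3 (log2 fold change -0.25, SE 0.0838, adjusted p = 0.0156). RPL36 had 294, 250.2 and 257 CPM against 277, 195 and 198 CPM (log2 fold change -0.26, SE 0.116, adjusted p = 0.0543). RPL38, known for its role in translating Hox mRNAs, had 329.9, 259 and 272 CPM against 263, 194 and 183 CPM, a log2 fold change of -0.43 (SE 0.123, adjusted p = 0.00625). In each of the 3 genes the overlap came from replicate 1 of SK-OV-3 with DMSO, the library with the most ribosomal RNA of its group.

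**Figure D2:**
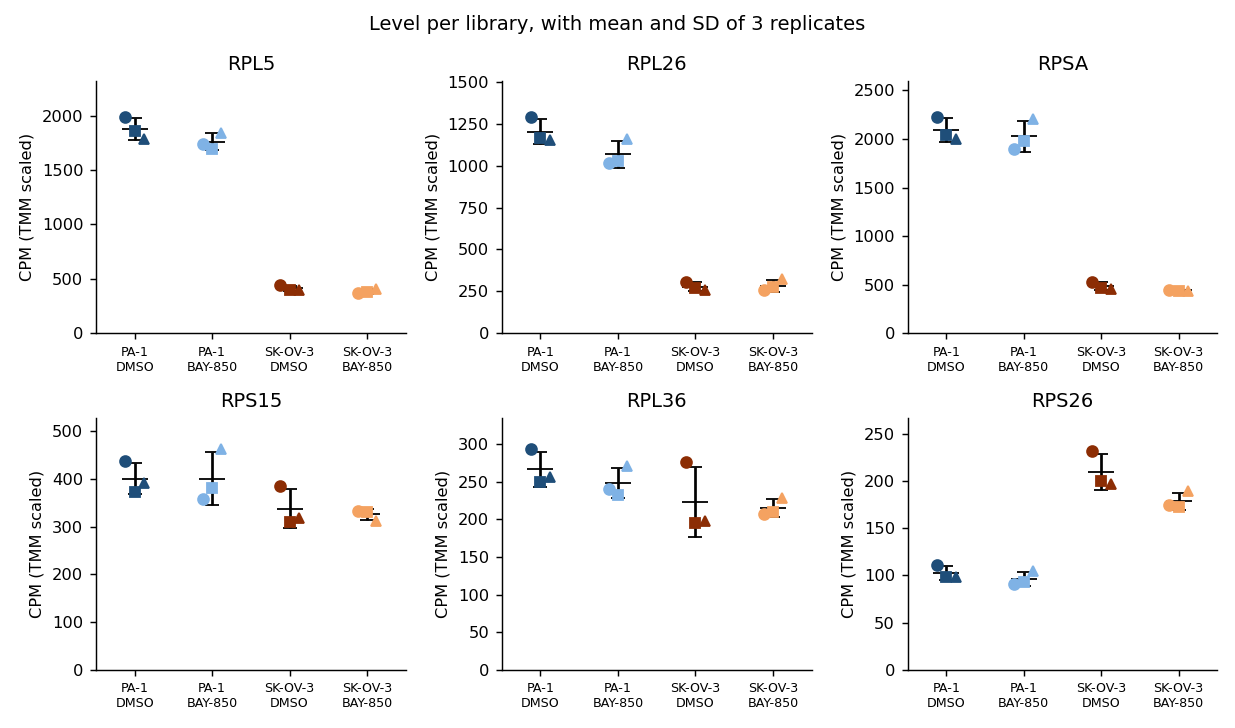
Level in CPM (TMM scaled) of 6 genes in each of the 12 libraries, with the mean and SD of 3 replicates (circle, square and triangle are replicates 1, 2 and 3). RPL5, RPL26 and RPSA were over 4-fold lower in SK-OV-3, RPS15 and RPL36 overlapped between the lines with DMSO, and RPS26 was 2.04-fold higher in SK-OV-3.

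The 3 proteins of the P stalk, which recruits the elongation factors, were lower in SK-OV-3 by unequal amounts. RPLP0 had 3506, 3290.1 and 3283 CPM in PA-1 against 1399, 1262 and 1249 CPM (log2 fold change -1.37, SE 0.0567, adjusted p = 1.71e-10). RPLP1 and RPLP2, which bind RPLP0 as dimers, had log2 fold changes of -1.14 and -0.90. Among the other large subunit genes chosen by role, RPL3 and RPL4, early assembling proteins of the subunit core, were 2.78-fold and 2.12-fold lower. RPL8 and RPL10, the latter a late joining protein next to the site where peptide bonds form, were 2.11-fold and 2.27-fold lower. RPL13A, which can leave the ribosome to form a translation-blocking complex after interferon, was 2.65-fold lower, RPL23A at the tunnel exit 2.05-fold, RPL41, the shortest ribosomal protein, 2.01-fold, and RPL22 1.67-fold.

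In the small subunit, RPS6, the protein that S6 kinase phosphorylates downstream of mTORC1, had 1913, 1736 and 1739.6 CPM in PA-1 against 589, 526 and 505 CPM, 3.33-fold lower in SK-OV-3 (log2 fold change -1.74, SE 0.0663, adjusted p = 7.82e-11). RPS2 and RPS3, at the mRNA entry channel, were 2.61-fold and 2.14-fold lower. RPS4X, the X-linked copy of its gene, was 2.51-fold lower. RPS14, RPS19 and RPS24, whose genes are affected in anemias of ribosome assembly, were 1.67-fold, 2.34-fold and 1.86-fold lower. RPS27 was 2.41-fold lower, and RPS27A, which is made as a fusion with ubiquitin, 2.19-fold. All of these genes passed the threshold, with adjusted p of at most 1.28e-06.

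**Figure D3:**
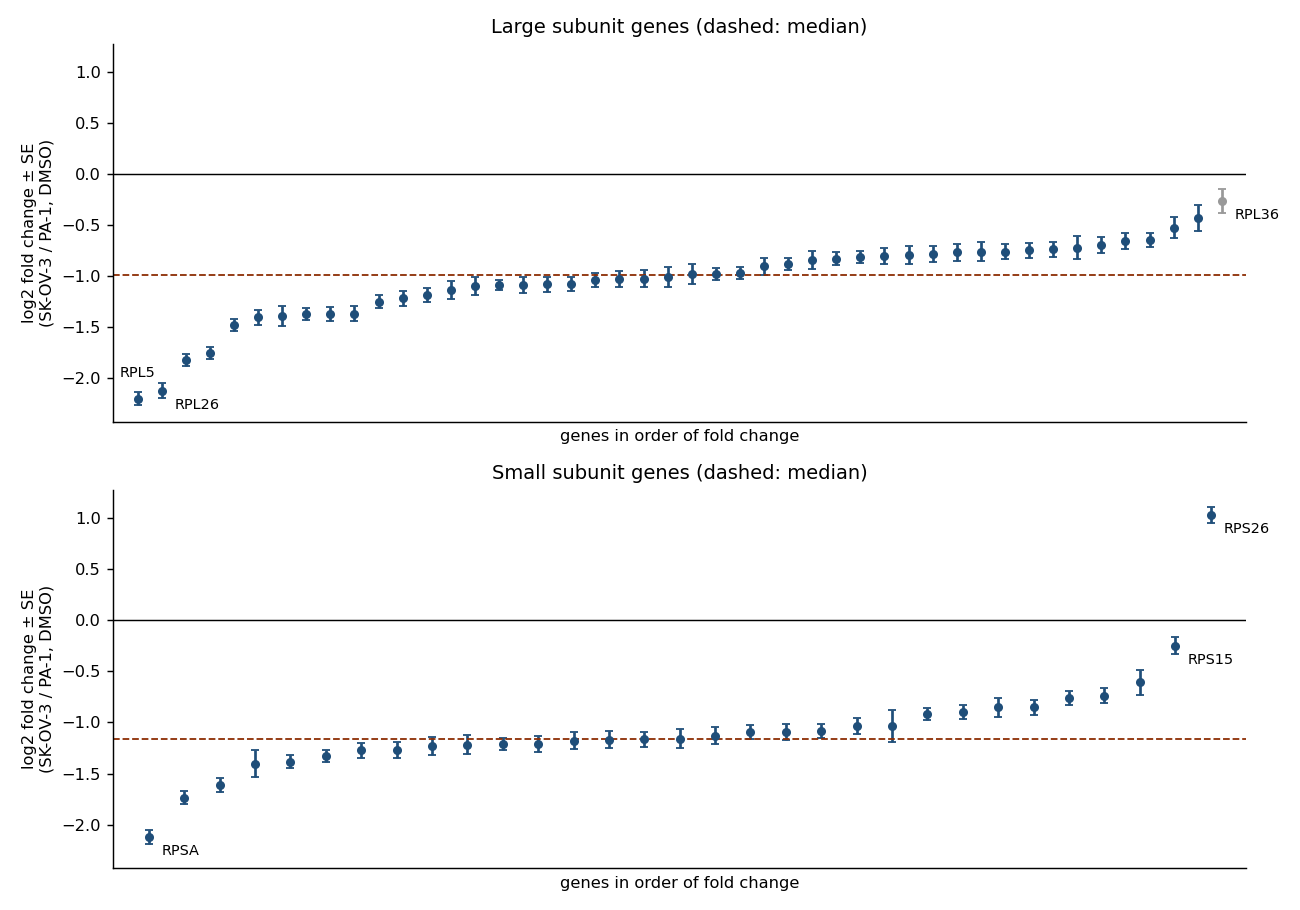
Log2 fold change (SK-OV-3 over PA-1, both with DMSO) of each of the 46 large and 31 small subunit genes, in order of size, with standard errors, the median as a dashed line and the names of 6 genes. Blue points passed an adjusted p of 0.05 and the gray point, RPL36, did not, and RPS26 is the only point above 0.

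These counts held under the alternatives tried, with 74 to 76 genes lower and 1 higher in every fit of all 77 genes, scalings included. Leaving out 1 library kept the median of the 77 genes between -1.14 and -1.02. Across the 77 genes the log2 fold change had a Spearman correlation of -0.57 with the mean level in PA-1 with DMSO, of -0.32 with transcript length and of 0.068 with GC content, as a description over genes that share the same 6 libraries. The level in PA-1 also enters the log2 fold change itself. Removing the trend of each library on length gave a median of -0.97. The genes lie on 21 chromosomes, and each chromosome with more than 1 of them had a median of -0.71 or lower. The 7 genes on chromosome 3 ranged from -2.12 to -0.69 and the 12 on chromosome 19 from -1.40 to -0.25.

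Genes with and without the run of C and T at the annotated start had similar medians. The median log2 fold change between the lines was -1.10 in the 42 genes with the run (from -2.12 to -0.26) and -1.01 in the 20 without it (from -1.75 to 1.03). This split goes by the annotated position and cannot test the TOP tract itself, since 56 of the 62 genes had a run somewhere in the window.

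Per kilobase of transcript, a scale on which genes can be compared, the same 5 genes led in both lines with DMSO. In PA-1 they were RPS2 (4391 CPM per kilobase), RPL41 (3907), RPLP0 (3384), RPS18 (2933) and RPLP1 (2771). In SK-OV-3 the order was RPL41 (1948), RPS2 (1686), RPS18 (1389), RPLP0 (1313) and RPLP1 (1262). RPS2 lay above RPL41 in 3 of 3 PA-1 libraries (4627, 4259 and 4288 against 4411, 3610.4 and 3701 CPM per kilobase) and below it in 3 of 3 SK-OV-3 libraries (1859, 1595 and 1604 against 2296, 1804 and 1743). RPS18 and RPLP0 changed places in the same way, and of the neighbors in either order RPLP0 and RPLP1 in SK-OV-3 were the pair that was not in the same order in every library. The lengths are those of 1 annotated transcript per gene, which need not be the one expressed.

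Other genes of translation were set beside these by lists chosen with earlier results of these data known. For reference, 40.2% of all genes tested between the lines were lower in SK-OV-3 and 40.1% higher. Of 23 other mRNAs listed as TOP mRNAs, 19 were lower in SK-OV-3 with DMSO and 1 was higher, with a median log2 fold change of -0.78. Only 16 of the 23 had a promoter entry, and 13 of these 16 had the run of C and T at the annotated start. Elongation factors EEF1A1 (-0.73, SE 0.0439) and EEF2 (-1.15, SE 0.0452), the poly(A)-binding protein PABPC1 (-1.37, SE 0.0493) and the initiation factor subunit EIF3E (-1.40, SE 0.0521) were among the 19, and EIF3G was the 1 higher gene (0.47, SE 0.0634). Of 17 initiation and termination factors listed as without a TOP tract, 9 were higher and 6 lower, with a median of 0.12. A promoter entry was found for 16 of them, and 0 of these had the run at the annotated start. The list ran from EIF2B3 (-0.97) to EIF4G2 (1.72).

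FAU did not pass the test between the lines (log2 fold change -0.23, SE 0.101, adjusted p = 0.0520). Among 8 paralogs of ribosomal proteins, 7 were tested, 3 were higher (RPL26L1, RPL7L1 and RPL36AL) and 3 lower in SK-OV-3. Among all genes tested, 40.1% were higher and 40.2% lower. RPL26L1 was 1.33 higher on the log2 scale where RPL26 was 2.12 lower, and RPL22L1 was lower by a log2 fold change of -1.11 where RPL22 was at -0.74. Of 5 dedicated chaperones of single ribosomal proteins, 4 were higher and none lower. HEATR3, which brings RPL5 to the nucleus, was higher (0.56, SE 0.109), as was TSR2, the chaperone of RPS26 (0.24, SE 0.0955, adjusted p = 0.0344), and BCCIP, the chaperone of RPL23, did not pass (-0.0038).

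Among 13 regulators of TOP mRNAs, 3 were higher and 7 lower in SK-OV-3 with DMSO, where 40.1% of all genes tested were higher and 40.2% lower. LARP1, which binds the TOP tract and the cap, was higher by 0.84 on the log2 scale (SE 0.0622, adjusted p = 5.21e-08). RPTOR, the mTORC1 subunit that selects substrates, was higher by 1.44 (SE 0.102), and MTOR itself did not pass (-0.040, adjusted p = 0.598). EIF4EBP1 and EIF4EBP2, repressors of cap-dependent translation, had log2 fold changes of -2.11 and -1.37.

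Among markers of other cell types, COL1A1, LUM, COL3A1 and CD68 also passed the test between the lines. DCN, PTPRC and CD3E did not pass the filter on low counts and were not tested. Of 4 fibroblast markers, COL1A1 was at 462 CPM in PA-1 and 168 CPM in SK-OV-3 with DMSO, LUM at 0.259 and 6.05 CPM, COL3A1 at 0.123 and 0.965 CPM, and DCN at 0 and 0.0086 CPM (means of 3). Of 3 leukocyte markers, CD68 was at 2.56 and 28.6 CPM, PTPRC at 0 and 0.0351 CPM and CD3E at 0.112 and 0 CPM. Their part in the result was not tested.

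The 5 genes outside the set whose log2 CPM over the 12 libraries had the highest Pearson correlation with the mean log2 CPM of the 77 genes were RBFA, C17orf49, ATP5G2, NDUFA4 and GSTZ1, with r from 0.994 to 0.996. RBFA, a mitochondrial ribosome binding factor, had means of 40.4 CPM in PA-1 and 17.6 CPM in SK-OV-3 with DMSO. The 12 points share the difference between the lines. Within the 6 libraries of a line, r was 0.839 to 0.949 in PA-1 and 0.842 to 0.970 in SK-OV-3.

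To see whether BAY-850 altered these genes, treated cells were compared with DMSO within each line. In PA-1, 3 of the 77 genes were lower with BAY-850 at an adjusted p under 0.05, RPS24, RPS27A and RPL21, and none was higher (edgeR, 15212 genes tested). That is 1 of 46 in the large and 2 of 31 in the small subunit, where 2.48% of all genes tested were lower and 4.65% higher. At an unadjusted p under 0.05, 23 genes were lower and 0 higher, where 11.1% of all genes tested were lower and 12.7% higher. DESeq2 called 12 of the 77 lower and limma-voom 3, and neither called one of them higher. Of all genes tested, DESeq2 called 4.77% lower and 6.65% higher, and limma-voom 2.49% and 4.69%. Of the 77, 69 had a negative log2 fold change, with medians of -0.10 in the large and -0.094 in the small subunit against -0.0019 over all genes tested. With the trend of each library on transcript length removed, 54 were negative and 23 positive, with a median of -0.046. In the main comparison all 77 lay between -0.29 and 0.066. In 8 genes every treated library lay below every DMSO library, which 13.3% of all genes tested did too.

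RPS24, which helps to process the precursor of 18S ribosomal RNA, had 1006, 932 and 867 CPM with DMSO and 716, 745 and 835 CPM after treatment of PA-1, without overlap. It fell by 0.29 on the log2 scale (SE 0.0668, adjusted p = 0.0191), a 1.22-fold difference. RPS27A, one of the genes from which ubiquitin is made, had 1186, 1022 and 1017 CPM against 832, 839 and 999 CPM (log2 fold change -0.27, SE 0.0756, adjusted p = 0.0443). RPL21 had 1182, 1053 and 1045 CPM against 905, 893 and 1009.9 CPM (log2 fold change -0.22, SE 0.0628, adjusted p = 0.0455). With the trend of each library on GC content removed, none of the 3 genes passed (adjusted p = 0.0741 for RPS24, 0.0825 for RPS27A and 0.140 for RPL21), and with all 12 libraries in one fit RPS27A (0.0867) and RPL21 (0.120) did not. In all 3 genes the third treated library, the one with the most ribosomal RNA, came closest to the DMSO libraries. The reads of RPL21 were partly divided with copies, and its pseudogenes held at most 0.691% of its counts each.

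The remaining 74 genes in PA-1 did not pass. The P stalk genes lay between -0.15 and -0.0064 on the log2 scale, RPL5 at -0.091 and RPL11 at -0.17, and RPS26 at -0.094. RPS29 had the most negative log2 fold change of all, -0.29, with an adjusted p of 0.119, and RPL28 the most positive, 0.066 (both named after their values were seen).

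In PA-1 the count of called genes depended on single libraries. It was 0 without DMSO replicate 1, DMSO replicate 2 or BAY-850 replicate 2, and 1 without BAY-850 replicate 1. It was 5 without DMSO replicate 3 and 22 without BAY-850 replicate 3. In the same order, 0.849%, 0.420%, 0.456%, 1.53%, 2.28% and 2.70% of all genes tested were lower. The median of the 77 genes stayed between -0.17 and -0.050. With the share of ribosomal RNA as a covariate, an alternative chosen after the data were seen, 41 of the 77 were lower and none higher, with a median of -0.13, while 5.01% of all genes tested were lower.

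In SK-OV-3, 2 of the 77 genes were lower with BAY-850, RPS3A and RPL7A, and none was higher (15348 genes tested). Of all genes tested 9.56% were lower and 10.8% higher, so in this fit the 2 of 77 lay below the background. That depended on the setting: with the trend of each library on transcript length removed, 12 of the 77 and 11.0% of all genes tested were lower. At an unadjusted p under 0.05, 9 genes were lower and 0 higher, where 16.2% of all genes tested were lower and 17.1% higher. DESeq2 called 7 of the 77 lower and limma-voom 2, and neither called one of them higher. Of all genes tested, DESeq2 called 11.7% lower and 12.3% higher, and limma-voom 9.91% and 10.4%. The medians were -0.025 in the large and -0.048 in the small subunit, against -0.0091 over all genes tested, and 54 of 77 were negative. All lay between -0.22 and 0.12. In 11 genes every treated library lay below every DMSO library, as in 20.5% of all genes tested.

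RPS3A, a small subunit protein near the mRNA exit channel, had 1043, 976 and 982 CPM with DMSO and 822, 865 and 879.9 CPM with BAY-850 in SK-OV-3. The groups did not overlap, and it fell by 0.21 on the log2 scale (SE 0.0489, adjusted p = 0.0105). RPL7A, whose introns host small nucleolar RNAs, had 909, 814 and 842 CPM against 735, 740.0 and 751 CPM (log2 fold change -0.19, SE 0.0504, adjusted p = 0.0201), also without overlap. RPS26, the gene that was higher in this line, had 231, 200.5 and 197 CPM with DMSO and 174, 172 and 189 CPM with BAY-850, and did not pass (log2 fold change -0.22, adjusted p = 0.0592).

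**Figure D4:**
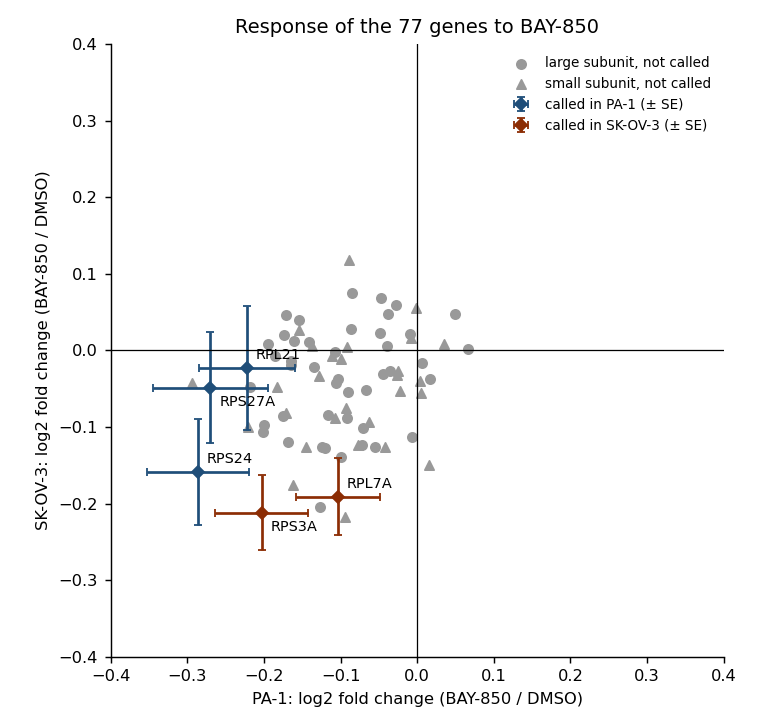
Log2 fold change with BAY-850 in PA-1 (horizontal) and SK-OV-3 (vertical) of each of the 77 genes, on equal axes. Diamonds with standard errors are the 3 genes called in PA-1 (blue) and the 2 called in SK-OV-3 (brown), and all points lie within 0.3 of zero in both lines.

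The sign of the median in SK-OV-3 turned on 1 library. Without DMSO replicate 1, 11 genes were called higher and 2 lower, where 10.0% of all genes tested were higher and 8.67% lower. The median moved from -0.038 to 0.063. Among the SK-OV-3 DMSO libraries, that replicate had both the most ribosomal RNA and the highest level of each of the 77 genes. Without BAY-850 replicate 1, 2 or 3 the genes called lower were 0, 1 and 6, where 7.05%, 6.90% and 11.8% of all genes tested were lower. With the share of ribosomal RNA as a covariate 3 genes were lower and none higher, with a median of -0.022, while 8.98% of all genes tested were lower.

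**Figure D5:**
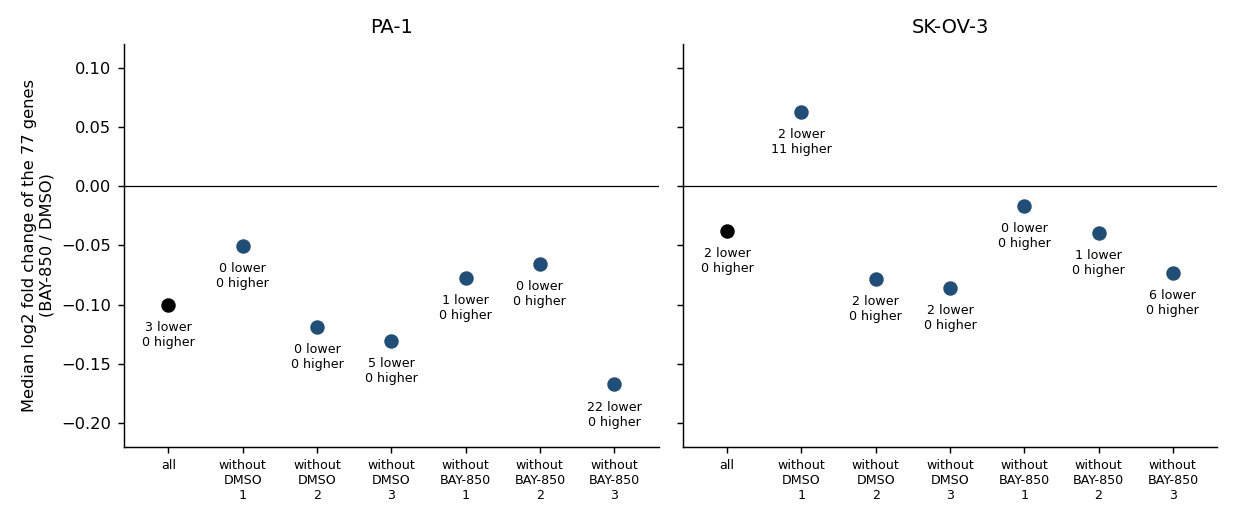
Median log2 fold change of the 77 genes with BAY-850 in each line, with all libraries (black) and with 1 library left out at a time (blue), and the number of genes called lower and higher beside each point. In PA-1 all medians are below 0, from -0.17 to -0.050, and in SK-OV-3 the median is 0.063 without DMSO replicate 1 and below 0 otherwise.

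No gene was called in both lines. Of the 77, 49 had a negative log2 fold change in both, 3 a positive one in both, 20 were negative in PA-1 alone and 5 in SK-OV-3 alone. The test of the difference in response between the lines called 0 of the 77 genes (edgeR, all 12 libraries), with 0 at an unadjusted p under 0.05. Of the 16830 genes tested, 14.5% were called and 28.2% had an unadjusted p under 0.05. DESeq2 and limma-voom also called 0 of the 77. Of all genes tested, DESeq2 called 10.2% lower and 9.40% higher, and limma-voom 7.77% and 6.43%. Over the 77 genes the median difference of the log2 fold changes was 0.038. This median was 0.13 without SK-OV-3 DMSO replicate 1 and 0.10 without PA-1 BAY-850 replicate 3. Without PA-1 DMSO replicate 1 it was -0.017, and without SK-OV-3 BAY-850 replicate 3 it was 0.035. The difference of the log2 fold changes (SK-OV-3 minus PA-1) was 0.12 (SE 0.103) for RPS24, 0.21 (SE 0.119) for RPS27A and 0.19 (SE 0.109) for RPL21. It was -0.020 (SE 0.0831) for RPS3A and -0.099 (SE 0.0755) for RPL7A. Standard errors of this size, from 0.0691 to 0.215 over the 77 genes, leave room for differences of the size of the changes themselves.

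With BAY-850, the same split by the annotated start, which cannot test the TOP tract itself, again gave similar medians. With and without the run of C and T they were -0.11 and -0.092 in PA-1 and -0.035 and -0.041 in SK-OV-3.

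Other genes of the pathway were called with BAY-850 as follows. For reference, 2.48% of all genes tested were lower and 4.65% higher in PA-1, and 9.56% lower and 10.8% higher in SK-OV-3. In PA-1, of the 23 other TOP mRNAs 2 were lower, NACA (-0.22, SE 0.0587) and EIF3E (-0.21, SE 0.0507), none was higher, and the median was -0.017. In SK-OV-3, 3 were lower (EEF1B2, HNRNPA1 and EIF3K) and 2 higher, TPT1 (0.19, SE 0.0497) and EIF4B (0.21, SE 0.0420), with a median of -0.023. Among the 13 regulators, LARP1 (0.24, SE 0.0600) and MTOR (0.23, SE 0.0612) rose in PA-1 and none fell. In SK-OV-3, MTOR (-0.32, SE 0.0683) and EIF4EBP2 (-0.36, SE 0.0887) fell and EIF4EBP1 rose (0.55, SE 0.0884, adjusted p = 0.00124).

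Of the 5 chaperones, BCCIP (-0.25) and LTV1 (-0.24) fell in PA-1, and GRWD1 (-0.24) and HEATR3 (-0.45) fell in SK-OV-3. Of the 17 factors listed as without a TOP tract, 1 rose and 1 fell in PA-1, EIF4G1 (0.29) and EIF2S2 (-0.20). In SK-OV-3, 2 of these 17 rose and 5 fell. Among all genes tested, 4.65% rose and 2.48% fell in PA-1, and 10.8% rose and 9.56% fell in SK-OV-3. Among the paralogs none was called in PA-1 and 2 of 6 tested fell in SK-OV-3, RPL7L1 (-0.43) and RPL26L1 (-0.33). FAU did not pass in either line, at -0.081 in PA-1 and -0.13 in SK-OV-3. Among the 7 markers of other cell types, COL1A1 rose in PA-1 (0.33), while in SK-OV-3 COL1A1 (-0.77) and LUM (-2.25) fell and CD68 rose (0.46), and their part in these results was not tested.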

How the data were processed

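RNA was sequenced in 12 libraries, 3 of each of 4 groups, from mRNA purified with oligo-dT beads and made into strand-specific libraries, while the series' design text names depletion of ribosomal RNA. As deposited, the authors' values are expected counts of each gene symbol, estimated with RSEM 1.2.15 and Bowtie2 2.1.0 on hg38 per the submitters' notes. The annotation was not given in the sources used here. RSEM divides reads that fit several genes, so counts of members with near-identical pseudogenes are estimates: 55 of the 77 genes had whole counts (within 0.001) in every library and 14 in none, and the 31 rows of named pseudogenes held 0.0162% to 0.0356% of the counts outside the 4 ribosomal RNA rows.

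Expected counts were rounded to whole numbers. Each comparison was fitted over all genes with edgeR 4.0.16 (R 4.3.3; TMM factors, filterByExpr, quasi-likelihood test, Benjamini-Hochberg, threshold 0.05), without a replicate term. The standard error is the size of the log2 fold change divided by the square root of F. The cell lines were compared with DMSO only, and the difference in response was an interaction term over all 12 libraries. Levels are CPM scaled by TMM factors of the 12 libraries. Shares were compared by exact permutation tests with scipy 1.17.1. The fits were checked on simulated counts. Positions, lengths and GC content come from GENCODE 29 (GRCh38), matched by symbol for 23899 rows and by a RefSeq synonym for 753, with 1823 unmatched.

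The members, the gene lists and the genes named (24 by role, the 3 largest called changes per direction and comparison, and the 5 genes most alike by log2(CPM + 1)) were chosen with earlier results of these data known. Alternatives were other scalings, DESeq2 1.42.0, limma-voom (limma 3.58.1), other filters, GC and length corrections (loess span 0.5), the replicate block, all 12 libraries in one fit and leaving out each library. Replicates are labelled as biological, and their numbers showed no pairing of samples over all genes tested. Some genes of the lists entered the counts but are not reported here by name.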

Additional observations from a re-analysis of the deposited data

How the results depend on the processing

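In PA-1, 3 of the 77 genes were lower with BAY-850, and brackets below give the share of all genes tested that was lower. The count was 12 when scaling by library size only (1.52%) and 8 by library size without ribosomal RNA (3.32%). It was 12 with DESeq2 (4.77%), 10 with no filter on low counts (2.91%) and 6 with at least 10 counts in every library (3.34%). It was 1 with the GC trend removed (1.02%) and 1 with all 12 libraries in one fit (1.27%). With the share of ribosomal RNA as a covariate, which was chosen after seeing the data, it was 41 (5.01%). Leaving out 1 library gave 0 to 22 (0.420% to 2.70%). In SK-OV-3, where 2 were lower, the count was 4 by library size without ribosomal RNA (10.2%) and 7 with DESeq2 (11.7%). It was 5 with no filter (7.88%), 4 with at least 10 counts in every library (11.6%) and 12 with the length trend removed (11.0%). Without 1 library it was 0 to 6 (5.02% to 11.8%). The genes higher with BAY-850 in SK-OV-3 ranged from 0 to 11 without 1 library, where 6.33% to 13.1% of all genes tested were higher. For the difference in response, 1 gene was lower with the length trend removed, where 7.78% of all genes tested were lower. With the covariate 4 were higher, where 7.3% of all genes tested were higher. Without 1 library 0 to 1 were higher. The 1 was found without SK-OV-3 DMSO replicate 1, where 5.9% of all genes tested were higher. Between the lines, the median was -0.97 with the length trend removed, the 1 higher gene (RPS26) became 0 without the 15 genes whose counts are mostly not whole, which removes it, and the difference in share was -4.77 percentage points of all counts in place of -5.46. Causes were otherwise not tested.

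With the replicate block, 3 genes were lower in PA-1, 2 in SK-OV-3 and 76 between the lines. In the same order, 2.02%, 8.26% and 40.03% of all genes tested were lower. No gene was called for the difference in response, where 6.8% of all genes tested were lower and 5.6% higher. Deviations of same-numbered replicates correlated between -0.032 and 0.044 over all genes tested, so the numbers showed no pairing of the samples there. In both DMSO groups replicate 1 held the highest level of all 77 genes, and a shared batch was not tested. RPL21 was not past the threshold with the block (adjusted p = 0.0573, edgeR). No direction of a called gene reversed under any alternative, while 6 calls of single genes with BAY-850 were lost under other settings and 16 without 1 library. The share outside mitochondrial rows was not run, since the table used here has 0 such rows.

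With 3 libraries a group, the log2 fold changes of these genes had median standard errors of 0.0657 in PA-1 and 0.0727 in SK-OV-3. The smallest change that was called had a size of 0.22 in PA-1 and 0.19 in SK-OV-3, and some changes above these sizes did not pass either, such as RPS29 in PA-1 and RPS26 in SK-OV-3.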
